A study of Mus musculus with 6 samples.

Results

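The mitosis genes described here are 47 mouse genes whose products carry a cell through division, from the cyclins that start mitosis to the proteins that close the cleavage furrow. They were listed by name, and 46 were represented by a probe set (a group of probes read out as 1 value) that named only that gene, of 19937 genes so represented on the array. Where a gene had several such probe sets, which applied to 2 members, the one of highest mean was taken. Ccnb1, the cyclin B1 gene, is named only. Affymetrix arrays were run on RNA of CD4+ T cells, the lymphocytes that direct other immune cells, taken from C57BL/6 mice 6 weeks old. The 3 WT arrays came from wild-type mice, and the 3 CBS-KO arrays from mice deficient in CBS, cystathionine beta-synthase, which joins homocysteine and serine and also makes hydrogen sulfide. The labels name no other allele, agent or treatment, do not say in which cells CBS is missing, and call the arrays of a group biological replicates.

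A dividing cell switches on cyclin B and Cdk1 to enter mitosis, attaches its chromosomes to a spindle through the kinetochores, and holds a checkpoint until every chromosome is attached. The anaphase-promoting complex, a ubiquitin ligase, then destroys securin and cyclin B, the chromatids part, and a contractile ring divides the cytoplasm. Most of these genes are transcribed late in the cell cycle and are nearly silent in resting cells, and a resting T cell enters the cycle only after activation. Blood cell precursors of the bone marrow and of the spleen divide constantly.

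The promoters of these genes are known for 2 short elements, the CCAAT box, bound by NF-Y, and the cell cycle homology region (CHR), through which the DREAM and MuvB complexes keep the genes silent in resting cells and active in dividing ones. RefSeq promoter windows of build GRCm38.p6, from 250 bases before to 50 bases after a transcript start, were matched by symbol for 40 members (43 windows). They were searched on both strands for CCAAT, read as ATTGG on the other strand, and for the CHR letters TTTGAA (its other strand reads TTCAAA) or TTTAAA or TTCGAA, the last pair being the same on both strands. The windows of the 4 members called higher that held both elements are shown because the genes moved together on the arrays. This does not set them apart, since 45 of 46 members shared 1 order over the CBS-KO arrays. No window was matched for Ccna2 and Aurkb, which were also called higher. Capitals mark the matches, which overlap only in the run CCAATTGG of Ube2c, and the rest is in lower case.
Mki67: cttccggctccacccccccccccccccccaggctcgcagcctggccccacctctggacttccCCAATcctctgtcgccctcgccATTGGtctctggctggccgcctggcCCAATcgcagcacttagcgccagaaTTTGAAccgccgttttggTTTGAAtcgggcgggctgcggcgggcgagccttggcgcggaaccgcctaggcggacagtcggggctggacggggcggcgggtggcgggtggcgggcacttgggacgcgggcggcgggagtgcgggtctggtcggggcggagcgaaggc
Plk1: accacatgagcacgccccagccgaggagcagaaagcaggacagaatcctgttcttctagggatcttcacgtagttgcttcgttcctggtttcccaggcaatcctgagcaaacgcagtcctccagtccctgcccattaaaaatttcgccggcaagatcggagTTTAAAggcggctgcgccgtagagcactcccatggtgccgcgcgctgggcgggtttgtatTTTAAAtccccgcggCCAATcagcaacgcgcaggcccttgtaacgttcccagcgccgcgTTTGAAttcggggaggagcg
Prc1: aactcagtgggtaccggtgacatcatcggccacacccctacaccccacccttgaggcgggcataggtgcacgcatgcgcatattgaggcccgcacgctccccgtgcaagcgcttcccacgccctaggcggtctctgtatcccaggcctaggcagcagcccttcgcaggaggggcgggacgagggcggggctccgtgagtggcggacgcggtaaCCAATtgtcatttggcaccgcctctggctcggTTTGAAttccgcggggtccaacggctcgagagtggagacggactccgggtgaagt
Ube2c: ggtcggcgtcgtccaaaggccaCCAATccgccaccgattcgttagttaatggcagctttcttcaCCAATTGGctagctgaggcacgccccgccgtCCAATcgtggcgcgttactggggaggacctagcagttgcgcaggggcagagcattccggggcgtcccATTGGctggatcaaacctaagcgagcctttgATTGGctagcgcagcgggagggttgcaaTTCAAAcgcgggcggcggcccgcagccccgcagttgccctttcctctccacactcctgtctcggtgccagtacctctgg

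The window of Mki67 lay at chr7:135716330-135716629, minus strand, with 3 CCAAT boxes and with TTTGAA beginning 116 and 98 bases before the start. That of Plk1 (chr7:122159185-122159484, plus strand) had 1 CCAAT box 14 bases before the start, TTTAAA beginning 89 and 29 bases before it and TTTGAA 30 bases after it. The first of the windows of Prc1 (chr7:80294201-80294500, plus strand) had CCAAT 37 bases and TTTGAA 5 bases before the start. Ube2c (chr2:164769679-164769978, plus strand) had 6 CCAAT matches and TTCAAA 29 bases before the start. Of the 43 member windows, 32 (74.4%) held CCAAT, against 37.4% of all 32851 windows and 36.7% of the 12905 windows of genes tested on the array. CHR letters were found in 37 (86.0%), against 28.8% of all windows and 21.0% of those of tested genes. Both elements were present in 31 member windows (72.1%), against 11.3% and 8.13%. The windows of Mad2l1, Ncaph, Nuf2, Nusap1 and Pttg1 held neither set of letters, and that of Cks2 held CCAAT alone. A match is a description of letters and says nothing of binding in these cells.

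The values are log2(intensity + 16), and differences are CBS-KO minus WT on that scale, on which low values are compressed. All 46 members passed the filter on dim probe sets, which asked for a mean over the 6 arrays above the 40th percentile (6.987), and 1 of them, Ttk, had a WT mean below that level. The arrays' medians lay between 7.37 and 7.55. The targeted gene does not check the labels: the probe set of Cbs had values of 7.37, 7.48 and 7.19 on the WT arrays, against 7.25, 7.63 and 7.35 on the CBS-KO arrays, and which exons it covers is not stated in the labels. Xist, the RNA of the inactive X chromosome, lay between 12.61 and 12.68 on the WT arrays and at 12.23 in CBS-KO 3, but at 6.02 in CBS-KO 1 and 6.18 in CBS-KO 2. Eif2s3y, a Y-linked gene, was at 9.41 and 9.19 on those same 2 arrays, against at most 4.9 on the other 4.

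Mitosis genes read higher in CBS-KO than in WT cells in 44 of 46 cases, with a median difference of 1.45, while 42.8% of all tested probe sets had a difference above 0 and the median over them was -0.0483. Of the 46 members, 7 passed the test as higher (limma, adjusted p under 0.05 over all tested probe sets) and 0 as lower, where 5.09% of all 20856 tested probe sets were called higher and 4.47% lower. The 7 were Mki67, Ccna2, Cks2, Ube2c, Prc1, Plk1 and Aurkb. At an unadjusted p under 0.05 there were 40 members higher and 1 lower, where 30.9% of all tested probe sets passed in either direction. The other 39 members had limma adjusted p-values from 0.0504 to 0.967, of which 29 were under 0.1. The arrays of the groups did not overlap for 36 members that were higher and 2 that were lower (Pttg1 and Smc4), against 15.0% and 21.7% of all tested probe sets.

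**Figure D1:**
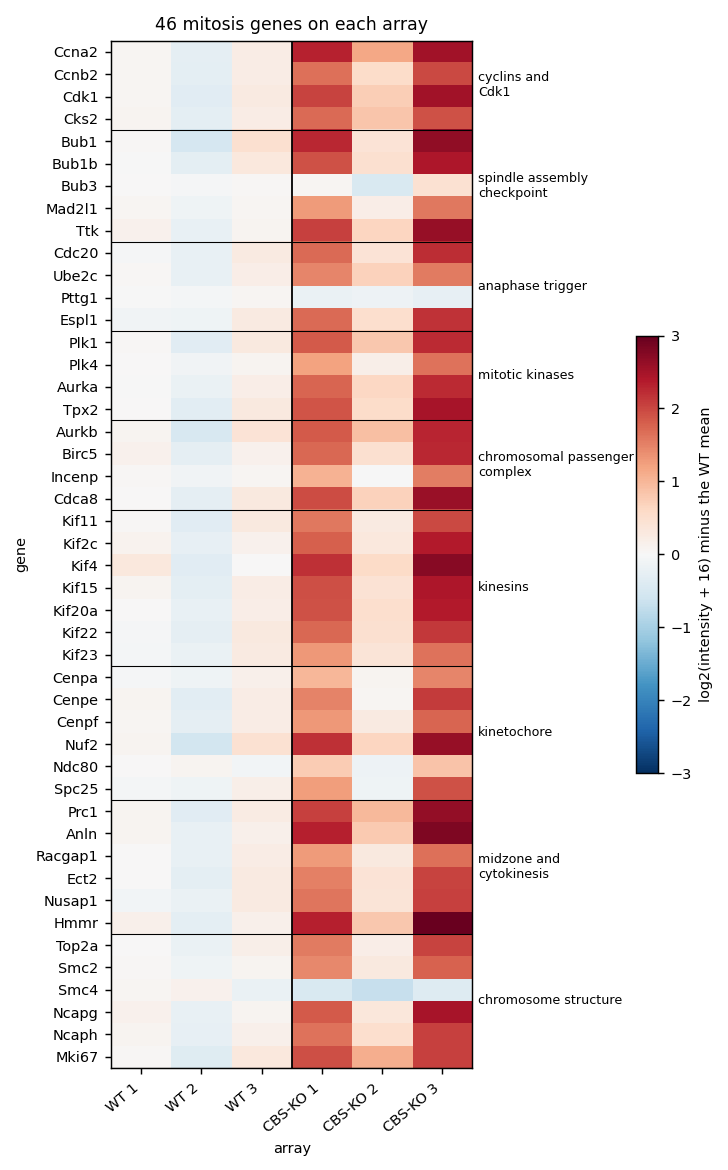
Each row is 1 of the 46 mitosis genes, grouped by role, and each column 1 array; colour is log2(intensity + 16) minus the gene's mean over the 3 WT arrays. CBS-KO 1 and CBS-KO 3 are red in nearly every row, CBS-KO 2 is pale, and Bub3, Pttg1 and Smc4 stand apart from the other genes.

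The CBS-KO arrays were far from alike. The members' median height over the WT mean was 1.69 in CBS-KO 1, 0.45 in CBS-KO 2 and 2.11 in CBS-KO 3. CBS-KO 3 lay above CBS-KO 1 and CBS-KO 1 above CBS-KO 2 for 45 of 46 members, an order found in 33.3% of all tested probe sets. The exception was Pttg1. CBS-KO 1 and CBS-KO 3 each exceeded every WT array for 44 members (31% and 35% of all tested probe sets). CBS-KO 2 did so for 36 (31%). The WT arrays shared a smaller pattern of the same kind: WT 3 lay above WT 1 and WT 1 above WT 2 for 40 of 46 members (22.0% of all tested probe sets), with member medians of 0.22, 0.04 and -0.24. The median SD of a member was 0.849 among CBS-KO and 0.241 among WT arrays, against 0.214 and 0.112 for all tested probe sets. The members thus varied together within each group, and they are not independent replicates of the comparison.

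The number of calls depended on which arrays were used. With CBS-KO 2 left out, 43 members were higher and 1, Smc4, was lower in limma (16.3% and 14.5% of all tested probe sets), the median difference was 1.93, and the members' median standard error (SE) was 0.20 in place of 0.41. With CBS-KO 3 left out, 2 were higher and 0 lower (3.92% and 2.69% of all tested probe sets; 34 and 1 at an unadjusted p under 0.05 in limma) with a median of 1.09. With WT 1, WT 2, WT 3 or CBS-KO 1 left out, 0 members passed in either direction, where 0.326%, 0.259%, 2.04% and 0.571% of all tested probe sets were called higher and 0.120%, 0.0911%, 1.18% and 0.225% lower. At an unadjusted p under 0.05 these fits had 36, 29, 37 and 27 members higher and 1 lower each, and the medians were 1.43, 1.32, 1.57 and 1.32. The share of all tested probe sets at an unadjusted p under 0.05 was taken only for the fit given first, with all arrays. Such counts from other fits, here and below, stand without a background and are descriptions. When CBS-KO 3, which lacked the Y-linked signal, was the sole CBS-KO array used, 44 members were higher and 0 lower (16.7% and 15.5% of all tested probe sets, the 2 others being Pttg1 and Smc4), with a median of 2.11 and 0 lower at an unadjusted p under 0.05, where the lone array is assumed to vary like the WT arrays. The Y-linked signal was in none of the WT arrays, so that it and the genotype cannot be told apart in CBS-KO 1 and 2, on which the members' medians over the WT mean were 1.69 and 0.45. CBS-KO 3, with 2.11, lacked it, and was the highest CBS-KO array for 45 of 46 members. The members' median SD was 0.849 among CBS-KO and 0.241 among WT arrays. The CBS-KO arrays thus did not vary like the WT arrays, as the fit with CBS-KO 3 alone assumed. The counts of that fit give no measure of certainty, and the part of the Y-linked signal in the members' values was not tested.

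**Figure D2:**
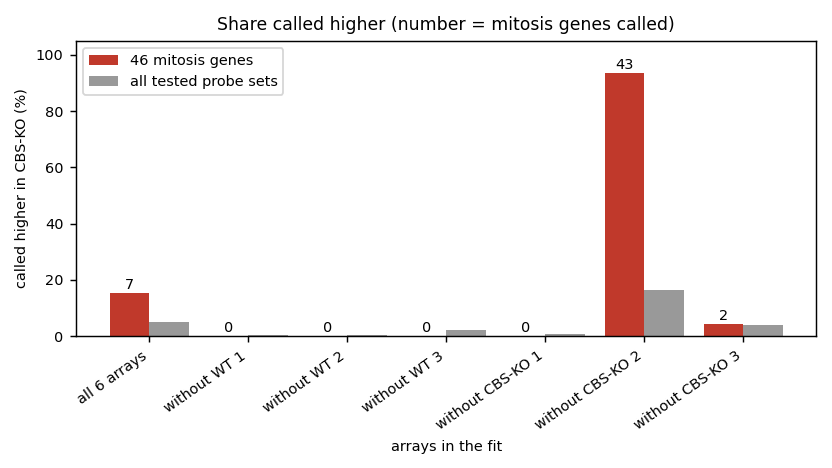
Share called higher in CBS-KO (limma, adjusted p under 0.05) among the 46 mitosis genes (red, with their number) and among all 20856 tested probe sets (grey), with all arrays and with each left out in turn. The number of mitosis genes called runs from 0 to 43, the highest without CBS-KO 2.

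Of the cyclins and their kinase, Ccna2 and Cks2 rose. Ccna2 encodes cyclin A2, which works in S phase and at entry into mitosis. Its probe set (10497831) had values of 10.26, 9.91 and 10.41 on the WT arrays 1 to 3, against 12.5, 11.34 and 12.71 on the CBS-KO arrays 1 to 3, so that the lowest CBS-KO array lay well above the highest WT array. The difference was 1.99 (SE 0.36, n = 3 per group, limma adjusted p = 0.0259), a 3.97-fold change. Cks2, a small subunit of cyclin-dependent kinases (10424779), read 10.04, 9.65 and 10.17 in WT and 11.65, 10.78 and 11.87 in CBS-KO cells. It was 1.48 higher (SE 0.30, adjusted p = 0.0341 in limma), again without overlap. Cdk1, the kinase that drives entry into mitosis, had WT values of 9.44, 9.05 and 9.66 and CBS-KO values of 11.41, 10.11 and 11.90. It did not pass (limma adjusted p = 0.0537), with a difference of 1.76 (in parentheses from here on, the 95% confidence interval: 0.70 to 2.81), and nor did that of Ccnb2, the cyclin B2 gene, with 1.40 (0.54 to 2.26). Of the 4 members of this class with a probe set, 2 passed as higher and all 4 separated the groups.

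In the spindle assembly checkpoint, which delays anaphase while kinetochores are unattached, 0 of 5 members passed in limma, and 4 had an unadjusted p under 0.05. Ttk, the Mps1 kinase that starts the checkpoint signal, read 7.06, 6.70 and 7.0 in WT and 8.97, 7.56 and 9.53 in CBS-KO cells, a difference of 1.77 (0.65 to 2.88). Bub1b, the BubR1 protein that inhibits Cdc20, read 8.57, 8.28 and 8.90 against 10.48, 9.05 and 11.01, a difference of 1.59 (0.44 to 2.75). In both genes all CBS-KO arrays were above all WT arrays, with CBS-KO 2 the lowest of them. The kinase Bub1 differed by 1.77 (0.38 to 3.17), with CBS-KO 2 inside the WT range, and Mad2l1, the Mad2 effector, by 1.02 (0.22 to 1.82). Bub3, the partner that brings Bub1 and BubR1 to kinetochores, had WT values of 10.96, 10.92 and 11.00 and CBS-KO values of 11.02, 10.51 and 11.41. They surrounded the WT values, and the difference was 0.02 (-0.50 to 0.54).

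Of the genes that trigger anaphase, Ube2c rose. Ube2c, the ubiquitin-conjugating enzyme of the anaphase-promoting complex (10478572), read 9.87, 9.60 and 10.03 in WT and 11.29, 10.52 and 11.39 in CBS-KO cells. The difference was 1.23 (SE 0.25, limma adjusted p = 0.0346), with no overlap between the groups. Espl1, the separase that cuts cohesin, read 7.62, 7.59 and 7.99 against 9.42, 8.24 and 9.89, a difference of 1.45 (0.48 to 2.42) that did not pass. Cdc20, which activates the ligase and is held by the checkpoint, differed by 1.44 (0.39 to 2.49). Pttg1, the securin that keeps separase inactive, went against its partners in value: it read 9.61, 9.56 and 9.68 in WT and 9.42, 9.46 and 9.38 in CBS-KO cells. All its CBS-KO values were below all WT values, yet the difference of -0.20 (-0.46 to 0.06, limma adjusted p = 0.261) did not pass. The difference was -0.22 without CBS-KO 2, so that Pttg1 did not share the spread of the other members over the CBS-KO arrays.

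The kinase Plk1, which acts at centrosomes, kinetochores and the midbody, rose as well. Its probe set (10557156) read 9.75, 9.37 and 10.0 in WT and 11.55, 10.53 and 11.94 in CBS-KO cells, a difference of 1.63 (SE 0.37, limma adjusted p = 0.0420). Aurka, the Aurora A kinase of the spindle poles, had WT values of 8.62, 8.43 and 8.84 and CBS-KO values of 10.37, 9.24 and 10.86. It differed by 1.53 (0.59 to 2.46) and Tpx2, its activator on spindle microtubules, by 1.64 (0.50 to 2.78), neither past the threshold. Plk4, which starts centriole duplication, had the smallest difference of these 4 genes, 1.0 (0.16 to 1.84). None of the 4 overlapped between the groups.

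The chromosomal passenger complex corrects faulty attachments and later sits at the midzone. Its kinase gene Aurkb (10377405) read 9.93, 9.36 and 10.27 in WT and 11.69, 10.75 and 12.14 in CBS-KO cells, a difference of 1.67 (SE 0.39, limma adjusted p = 0.0449). Aurkb was thus 3.19-fold higher, and the only one of the 4 to pass. Cdca8, the borealin subunit, read 7.91, 7.62 and 8.19 against 9.85, 8.60 and 10.50, a difference of 1.74 (0.65 to 2.84). Birc5, survivin, differed by 1.49 (0.45 to 2.53). Incenp, the scaffold, differed by 0.86 (-0.02 to 1.74), and its CBS-KO 2 value of 9.01 lay within the WT range of 8.92 to 9.08.

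**Figure D3:**
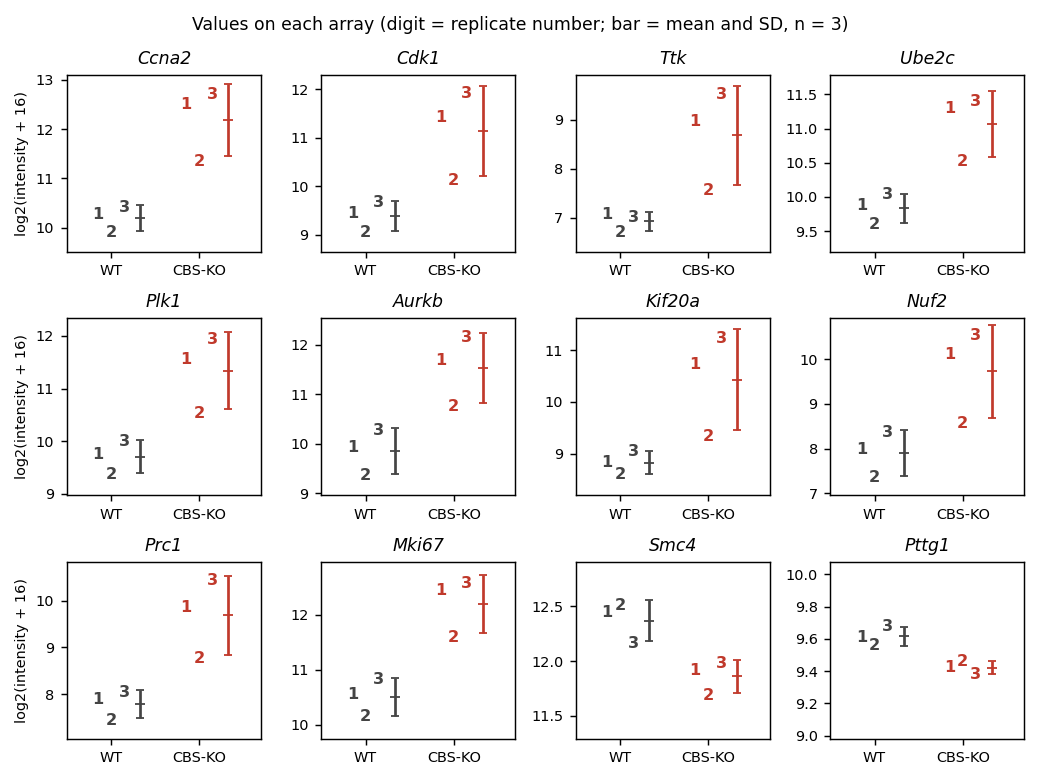
Values of 12 mitosis genes on the 6 arrays; digits give the replicate number, and the bar beside them the mean and SD of 3 arrays, with an axis per gene in log2(intensity + 16). In the 10 genes from Ccna2 to Mki67 replicate 2 is the lowest of both groups, while Smc4 and Pttg1 read lower in CBS-KO.

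Of the 7 kinesins, microtubule motors of the spindle, 0 passed in limma, while all 7 had an unadjusted p under 0.05 and positive differences from 1.10 to 1.84. Kif4, which works on chromosome arms and at the midzone, read 7.48, 6.84 and 7.17 in WT and 9.37, 7.75 and 9.90 in CBS-KO cells, a difference of 1.84 (0.58 to 3.10). Kif20a, a motor of the midzone, read 8.84, 8.60 and 9.04 against 10.73, 9.34 and 11.22, a difference of 1.60 (0.51 to 2.69). Both kept the groups apart. Kif15 differed by 1.59, the microtubule depolymerase Kif2c by 1.5, the chromosome arm motor Kif22 by 1.44, Kif11, which pushes the spindle poles apart, by 1.28, and Kif23 of the centralspindlin complex by 1.10. Kif11 alone overlapped, since its CBS-KO 2 value of 9.87 lay below the 9.89 of WT 3.

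Kinetochore genes had the smallest differences of the 9 role classes as a median, 1.05, and 4 of the 6 overlapped between the groups. In limma 0 of 6 passed, and 4 had an unadjusted p under 0.05. Nuf2, a subunit of the microtubule-binding Ndc80 complex, read 7.99, 7.36 and 8.37 in WT and 10.11, 8.56 and 10.52 in CBS-KO cells, a difference of 1.83 (0.58 to 3.07). Its partners in that complex differed less: Spc25 by 1.01 (-0.14 to 2.16) and Ndc80 by 0.49 (-0.17 to 1.14). In both of these CBS-KO 2 lay below every WT array, with 7.65 for Spc25 and 8.14 for Ndc80. Cenpf, a large protein of the outer kinetochore, read 7.86, 7.52 and 8.02 against 9.09, 8.08 and 9.54, a difference of 1.10 (0.22 to 1.97). The kinesin Cenpe differed by 1.21 (0.04 to 2.38) and Cenpa, the histone variant that marks centromeres, by 0.84 (0.06 to 1.63), both with CBS-KO 2 inside the WT range.

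Among genes of the midzone and of cytokinesis, Prc1 rose. Prc1, which bundles midzone microtubules (10554445), read 7.88, 7.45 and 8.03 in WT and 9.84, 8.77 and 10.43 in CBS-KO cells, a difference of 1.89 (SE 0.41, limma adjusted p = 0.0402). Anln, the anillin scaffold of the contractile ring, read 7.87, 7.55 and 7.93 against 10.12, 8.56 and 10.58, a difference of 1.97 (0.79 to 3.14) that did not pass. Hmmr, a spindle and hyaluronan-binding protein named after its value was seen, had the largest difference of all members, 2.03 (0.79 to 3.26, limma adjusted p = 0.0560). Nusap1, a microtubule binder of the spindle, differed by 1.34, and Ect2 and Racgap1, which switch on RhoA at the furrow, by 1.32 and 1.07. All 6 genes kept the groups apart, and 1 passed.

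Among the genes of chromosome structure, Mki67 rose and Smc4 went the other way. Mki67 encodes Ki-67, the proliferation marker that coats mitotic chromosomes (10568714). It read 10.55, 10.15 and 10.82 in WT and 12.44, 11.59 and 12.56 in CBS-KO cells, a difference of 1.69 (SE 0.29, limma adjusted p = 0.0241), or 3.22-fold, and had the smallest adjusted p of all members. Top2a, topoisomerase II alpha, which untangles sister chromatids, read 9.96, 9.77 and 10.14 in WT and 11.53, 10.16 and 11.98 in CBS-KO cells. Its CBS-KO 2 value was just above the highest WT value, and the difference of 1.27 (0.22 to 2.31, limma adjusted p = 0.107) did not pass. Smc4 (10492558), which pairs with Smc2 as the core of condensin, read 12.44, 12.51 and 12.16 in WT and 11.91, 11.69 and 11.98 in CBS-KO cells. All CBS-KO values lay below all WT values, and the difference of -0.51 (-0.81 to -0.22, limma adjusted p = 0.0504) fell just short of the threshold. Its partner Smc2 differed by 1.17 (0.32 to 2.01), and the condensin I subunits Ncapg and Ncaph by 1.55 and 1.39, so that the parts of 1 complex differed in opposite directions in value.

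**Figure D4:**
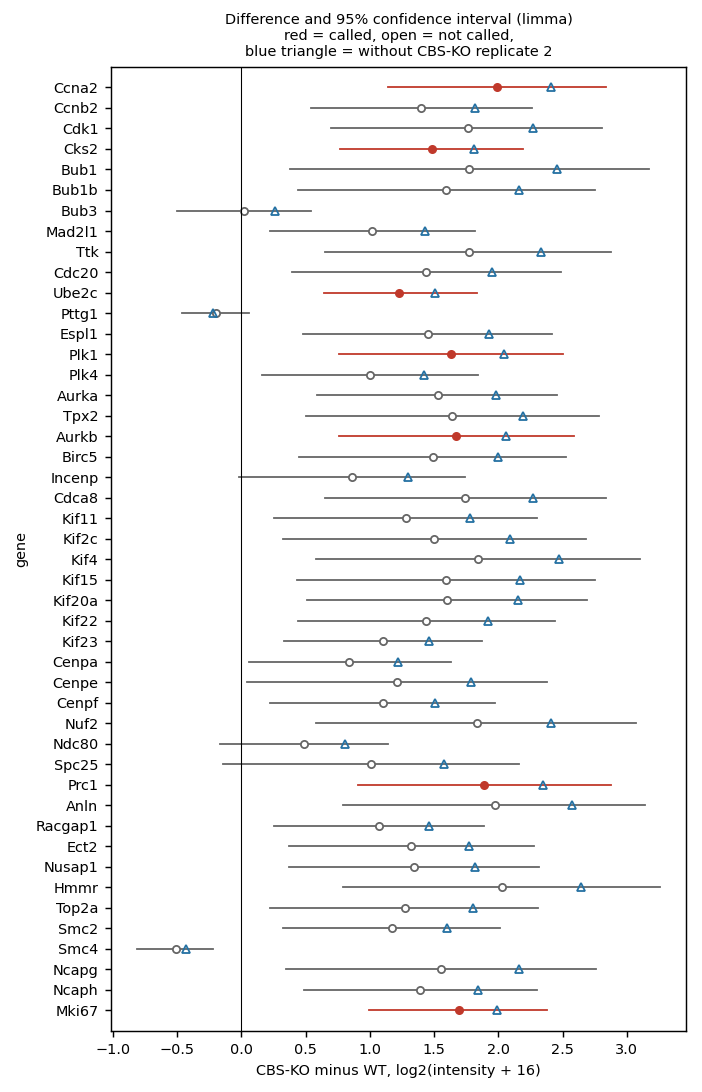
Difference CBS-KO minus WT in log2(intensity + 16) with the 95% confidence interval of the limma fit for each of 46 mitosis genes; red marks the 7 called and open grey points those not called. Blue triangles give the difference without CBS-KO 2, which lies to the right for the members with a positive difference.

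None of the 7 called members passed in every setting tried. With a filter at the 60th percentile 12 members were higher and 1 lower (6.60% and 6.54% of all tested probe sets), after quantile normalization 11 and 1 (5.78% and 5.26%), and with no filter 2 and 0 (1.73% and 1.51%). In a limma test against a 1.5-fold change 0 passed (0.527% and 0.101%), with 26 higher and 0 lower at an unadjusted p under 0.05. With a common array median 6 were higher and 0 lower (4.56% and 4.57% of all tested probe sets). With a gene's probe sets averaged, 6 and 0 passed as well (5.20% and 4.38%). Mki67 and Ccna2 passed in 13 of 18 alternatives, Ube2c, Plk1 and Prc1 in 11, and Cks2 and Aurkb in 10. All 7 lost their call with WT 1, WT 2, WT 3 or CBS-KO 1 left out, when their differences stayed positive. Over all alternatives the adjusted p ran from 0.00291 to 0.187 for Mki67, from 0.00183 to 0.170 for Ccna2 and from 0.00614 to 0.406 for Aurkb.

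Cell cycle genes outside the list were read in the same way, from lists of 139 genes of which 135 were tested. In all, 26 rose and 1 fell (5.09% and 4.47% of all tested probe sets), with a median of 1.01 over the 136 measured. All 24 measured S phase genes had positive differences (median 1.31), and 9 passed, among them Rrm2, a subunit of ribonucleotide reductase (1.96, SE 0.37), Mcm10, a replication origin factor (1.89, SE 0.39), and the thymidine kinase gene Tk1 (1.65, SE 0.30). Their list mean over WT was 1.61, 0.53 and 2.0 in CBS-KO 1 to 3, against 1.58, 0.42 and 2.0 for the mitosis genes. Of 15 transcription regulators of late cell cycle genes, 5 rose, with E2f8, an atypical E2F repressor (2.37, SE 0.43), and Mybl2, the B-Myb activator (2.17, SE 0.35), first, and E2f4, the E2F of the DREAM complex, at 0.86 (SE 0.17). Of 14 Cdk1 switch genes and Cdk inhibitors, Gtse1 (1.48, SE 0.36) and Cks1b (1.62, SE 0.39), a paralogue of Cks2, rose, and the inhibitor gene Cdkn1b, which encodes p27, fell by 0.56 (SE 0.13).

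Of 26 tested genes of the other kinetochore and checkpoint list, 4 rose, among them Knl1, the platform on which Bub1 and Bub3 assemble (1.87, SE 0.41), Nsl1 (1.17, SE 0.25) and Pmf1 (1.17, SE 0.26), both of the Mis12 complex. Of 19 other spindle and cytokinesis genes 3 rose, namely Kif18b (1.77, SE 0.42), Ckap2l (1.55, SE 0.37) and the citron kinase gene Cit (1.38, SE 0.30). The 16 other anaphase-promoting complex genes, most of them subunits of the ligase itself, had a median of 0.11. Of these 16, 1 was called higher, Ube2s (0.70, SE 0.17), where 5.09% of all tested probe sets were, so the count lay near that share. Of 15 cohesin and other condensin genes 0 passed in limma, with 4 higher and 2 lower at an unadjusted p under 0.05 and a median of 0.07, and the smallest p belonged to the cohesin loader gene Nipbl (-0.42, SE 0.11). Of 6 G1 cyclins and kinases, Cdk6 (1.25, SE 0.28) and Ccnd1 (0.84, SE 0.18) rose. With WT 1, WT 2 or CBS-KO 1 left out, 0 of these genes were called higher in limma. The number was 1 when WT 3 was left out, 8 when CBS-KO 3 was, and 99 when CBS-KO 2 was. Of all tested probe sets 2.04%, 3.92% and 16.3% were called higher in these 3 fits.

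Erythroid, neutrophil, and monocyte and macrophage markers were also higher in CBS-KO than in WT cells, but their order over the CBS-KO arrays differed between lists. With all arrays, 5.09% of all tested probe sets were called higher and 4.47% lower, which is the background for every marker list below. Of 10 measured erythroid markers all 10 rose (median 2.99), and their summed intensity was 2255 to 4437 on WT and 19119 to 45974 on CBS-KO arrays. Slc4a1, the red cell anion exchanger, rose by 4.31 (SE 0.38) and Alas2, the erythroid haem synthesis enzyme, by 3.0 (SE 0.18). The erythroid mean over WT was 3.51, 2.5 and 3.83 in CBS-KO 1 to 3 and 0.11, -0.44 and 0.33 in WT 1 to 3. This was the same order of arrays in both groups as for the mitosis genes. The WT order was not particular to them. It was shared by neutrophil markers (-0.09, -0.28 and 0.38 in WT 1 to 3) and stem and progenitor markers (-0.06, -0.22 and 0.27). The B, plasma, NK and activated T cell lists had it too, the monocyte and macrophage and CD4 T cell lists did not. CBS-KO 2 was also the lowest CBS-KO array for the neutrophil and the stem and progenitor lists. Of 14 neutrophil markers 12 rose (median 3.36, summed intensity 1832 to 3579 on WT and 27197 to 39550 on CBS-KO arrays), with Lcn2 at 5.33 (SE 0.19) and S100a9 at 3.86 (SE 0.20). Their mean was 3.35, 2.88 and 3.06 in CBS-KO 1 to 3. Of 12 monocyte and macrophage markers all 12 rose (median 2.37, 2602 to 4977 on WT and 17468 to 23661 on CBS-KO arrays), with Lyz2 at 3.67 (SE 0.39) and Fcgr3 at 1.53 (SE 0.16). Their mean of 1.95, 2.54 and 2.05 was highest in CBS-KO 2, the CBS-KO array on which the mitosis genes were lowest. These calls also depended on the arrays used. With WT 1, WT 2 or CBS-KO 1 left out, 3, 2 and 2 erythroid, 5, 5 and 6 neutrophil, and 1, 0 and 5 monocyte and macrophage markers were called higher in limma, while all 10, 14 and 12 had an unadjusted p under 0.05 in each of these fits. With WT 3, CBS-KO 2 or CBS-KO 3 left out, 8 to 10, 10 to 13 and 11 to 12 were called higher. Without WT 1, WT 2 or CBS-KO 1, 0.326%, 0.259% and 0.571% of all tested probe sets were called higher. Without WT 3, CBS-KO 2 or CBS-KO 3 the shares were 2.04%, 16.3% and 3.92%.

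Of 6 stem and progenitor markers, 3 rose (median 1.37, summed intensity 3049 to 3847 on WT and 5186 to 9684 on CBS-KO arrays), among them the receptor genes Flt3 (2.19, SE 0.24) and Kit (1.55, SE 0.31), and the list mean was 1.76, 0.83 and 1.62 in CBS-KO 1 to 3. All 6 were called without CBS-KO 2 (16.3% of all tested probe sets), 0 without WT 2 (limma, 4 at an unadjusted p under 0.05), and 1 with any other array left out. Of 10 measured CD4 T cell markers 4 fell and 0 rose (median -0.62, 72962 to 81502 on WT and 40068 to 63338 on CBS-KO arrays, 0 higher at an unadjusted p under 0.05), led by Cd3d (-1.12, SE 0.18) and Cd3g (-0.74, SE 0.13), which encode chains of CD3. Their mean was -0.68, -0.34 and -1.02 in CBS-KO 1 to 3. All 10 were called lower without CBS-KO 2 (14.5% of all tested probe sets) and 4 without CBS-KO 3 (2.69%). With CBS-KO 1 or any WT array left out, 0 were (limma, 6 to 9 at an unadjusted p under 0.05). Of 9 markers of activated T cells 0 passed in limma (2 higher and 4 lower at an unadjusted p under 0.05, median -0.33, 19338 to 22998 on WT and 16237 to 20959 on CBS-KO arrays). Tnfrsf9, 4-1BB, differed by -0.96 (SE 0.24) and Icos, a co-stimulatory receptor, by -0.66 (SE 0.17). The 2 that were higher were Cd44, at 0.53 (SE 0.14), and Myc, at 0.65 (SE 0.19). Without CBS-KO 2, 2 of the 9 were called higher and 3 lower (16.3% and 14.5% of all tested probe sets), and without CBS-KO 3, 1 lower (2.69%).

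In each of the remaining marker lists at most 2 markers passed with all arrays, where 5.09% of all tested probe sets were called higher and 4.47% lower. The list medians were -0.23 for B cell, 0.70 for plasma cell, 0.13 for NK cell and -0.04 for thymocyte and CD8 markers. In CBS-KO 1 to 3 the list mean over WT was -0.16, 0.97 and -0.77 for B cell and 0.73, 1.21 and 0.34 for plasma cell markers. Of 7 B cell markers 1, Ighm, rose (1.53, SE 0.23), while Ms4a1 differed by -0.58 (SE 0.54), with summed intensities of 8982 to 12592 on WT and 9072 to 23973 on CBS-KO arrays. Of 5 plasma cell markers 1 rose, Tnfrsf17 (1.06, SE 0.24), beside Xbp1 at 0.74 (SE 0.20), with 7811 to 9982 and 10690 to 18525. Of 7 NK cell markers 2 rose, Ncr1 (2.06, SE 0.29) and Gzma (1.38, SE 0.15), with 5887 to 9732 and 7003 to 11520. The lowest of that list was Klrd1, at -0.50 (SE 0.31). Of 4 tested markers of immature thymocytes and CD8 T cells 0 passed in limma, 0 also at an unadjusted p under 0.05, with Ptcra at -0.11 (SE 0.09) and Cd8a at 0.44 (SE 0.38), and 1626 to 1788 against 1179 to 2534. With WT 1, WT 2 or CBS-KO 1 left out, 0 of the B, plasma and NK cell markers were called (limma, 1, 2 to 4 and 2 at an unadjusted p under 0.05). Without WT 3, 0 B and 0 plasma cell markers were called (limma, 1 and 4 at an unadjusted p under 0.05). Without CBS-KO 3, 2 plasma cell markers were higher (3.92% of all tested probe sets). Without CBS-KO 2, 3 plasma cell markers were higher (16.3%), and 2 B cell markers and 1 thymocyte or CD8 marker lower (14.5%). No measured marker was listed at 0, since every intensity in the table was positive. In bulk RNA, more dividing cells and more mitotic RNA per cell cannot be told apart. The part of these cell types in the values of the mitosis genes was not tested.

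**Figure D5:**
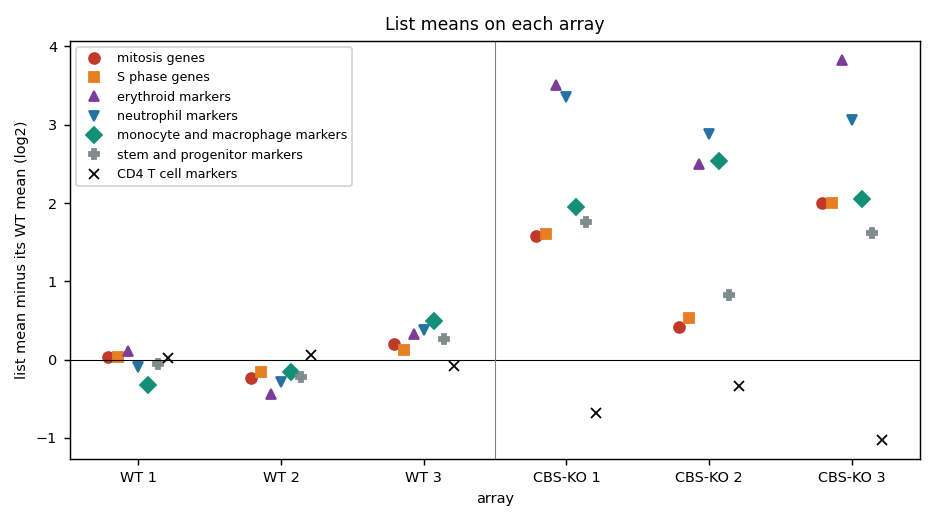
Mean of each gene list on each array relative to its mean over the 3 WT arrays, in log2 units. Mitosis and S phase genes are low in CBS-KO 2 (0.42 and 0.53) and high in CBS-KO 3 (2.0 for both), erythroid markers have the same order, and monocyte and macrophage markers are highest in CBS-KO 2 (2.54).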

How the data were processed

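Gene expression in CD4+ T cells of WT and CBS-KO mice (3 Affymetrix arrays each) was analysed from a table of 1 intensity per probe set and array, deposited by the authors on a linear scale. How the scans were background-corrected, normalized and summarised, and how the cells were isolated, is not given in sources used here, and whether the arrays were centred is unknown. Per the labels' protocols, biotinylated cRNA was made from total RNA. Of 34760 probe sets, 21640 named 1 gene in the platform annotation, 1321 several and 11799 none.

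Log2(intensity + 16) was fitted for the 20856 probe sets above the 40th percentile in limma 3.58.1 under R 4.3.3 (moderated by eBayes with an intensity trend, two-sided, Benjamini-Hochberg over all tested probe sets, threshold 0.05), which was tested on simulated data. The members and lists were chosen with earlier results of these data known, so their counts are descriptions. Values on every array are given for the 2 members of smallest p in each role class and for Ccnb1 (no such probe set), Cdk1, Aurkb, Mki67 and Top2a, other members by their difference, Bub3, Pttg1 and Hmmr after their values were seen. From each further cell cycle list up to 3 called genes of smallest p are named, from each marker list 2. Cd44, Myc and Klrd1 were added after their values were seen. Figures used matplotlib 3.10.9. The number of arrays limits precision. Alternatives covered scaling, filter, offset, variance model, pairing, probe set choice, threshold and arrays left out.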

Additional observations from a re-analysis of the deposited data

How the results depend on the processing

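The median difference of the mitosis genes stayed between 1.09 and 2.11 in all alternatives. The number called higher (7) was 12 with a filter at the 60th percentile, 11 after quantile normalization, 2 with no filter and 0 in the test against a 1.5-fold change (limma, 26 at an unadjusted p under 0.05), and from 0 to 43 with each array left out in turn (44 with CBS-KO 3 alone). The number called lower (0) was 1 with that filter and after quantile normalization, and 0 to 1 with arrays left out. With the replicate number as a block, 32 were higher, where 5.61% of all tested probe sets were. The labels do not say that equal numbers mark paired mice. Deviations of same-numbered arrays correlated at 0.063, 0.158 and 0.108 over all tested probe sets, and the pairing required every value to be over 0.1, which the first missed, so the main fit has no block. Each array correlated best with its own number, which is a hint of pairing from the data, not from the design.

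The other cell cycle genes called higher (26) were 16 with a common array median, 3 with no filter, 50 with the replicate block, 0 against 1.5-fold and 0 to 99 with each array left out (104 with CBS-KO 3 alone). Those called lower (1) were 2 with the 60th percentile filter, 0 to 4 with arrays left out, and 0 without a trend, with robust eBayes, no filter, quantile normalization, the replicate block or the 1.5-fold test. Marker genes of other cell types called higher (41) were 14 against 1.5-fold and 7 to 47 with arrays left out, and those called lower (0) were 0 to 7. Bub3 changed sign, with -0.01 after quantile normalization and -0.20 to 0.26 with each array left out, as did Cd8a, with -0.03 to 0.68. Over all probe sets, 1062 were higher and 933 lower, against 602 and 524 with no filter, 110 and 21 against 1.5-fold, and from 54 and 19 without WT 2 to 3396 and 3031 without CBS-KO 2. The causes of these changes were not tested. With 3 arrays a group, the limma p-values set each difference against the spread between these arrays, moderated over all tested probe sets. They take in no source of variation beyond these arrays.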
